A study of Mus musculus with 20 samples.

Results

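The mesothelium is the single layer of flat cells that covers visceral fat and lines the abdominal cavity, and 10 genes that mark it were followed in visceral adipose tissue (VAT) of mice: Msln, Upk3b, Upk1b, Lrrn4, Gpm6a, Krt8, Krt18, Krt19, Wt1 and Bnc1. They were chosen by name from the gene names of the array. All 10 of the 37074 names on the array were present, with 13 probes, and all 10 were among the 25618 gene names that could be tested. The fat came from the epididymal area of 20 male F3 C57bl/6J mice with 1 microarray per mouse. The 6 Ref mice came from a lineage given oleic sunflower oil over the generations (control fatty acid in the labels) and ate a low-fat diet (STD). The 6 HFoleic mice came from that same control lineage and ate the high-fat diet (HFD, Cont). The 8 HFepa mice ate the high-fat diet too, but came from a lineage given fish oil rich in the n-3 fatty acid EPA (O3 in the labels). HFoleic and Ref therefore differ in diet, HFepa and HFoleic in lineage, and HFepa and Ref in both.

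Mesothelial cells are unusual in sharing features of 2 tissue types. They are held together by junctions and carry keratins as epithelia do, while they come from the mesoderm and express the transcription factor Wt1. They make a slippery coat for the organs, and when injured they can lose keratins and take on features of fibroblasts. The epididymal fat pad lies against the epididymis, vas deferens and testis, and keratins 8, 18 and 19 are also made by the glandular epithelia of those organs and by the lining of the bladder.

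Values are normalized intensities on the log2 scale, so that a difference of 1 is a doubling, and each gene is given by its tested probe with the highest mean. The share of spots well above background ran from 66.06% to 71.88% over the arrays, and 0 spots were saturated. The adipocyte list had all 8 genes tested with mean levels of 16.6 to 17.4 on the 20 arrays. On 6 arrays the mean level of 9 epithelium genes (Epcam, Cldn3, Cldn4, Cldn7, Elf3, Grhl2, Esrp1, St14 and Prss8) stood apart from the rest, at 6.88 or higher against 6.09 or lower on the other 14. They were Ref mice 2, 3 and 6, HFoleic mouse 5 and HFepa mice 4 and 7. Some group differences and correlations are also given without these 6 arrays, which leaves 3 Ref, 5 HFoleic and 6 HFepa mice. Whole tissue was measured, so fewer mesothelial cells and less RNA per mesothelial cell cannot be told apart.

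None of the 10 members differed between groups past the threshold in any of the 3 comparisons, while the same genes varied widely from mouse to mouse inside every group. In HFoleic vs. Ref, 0 of 10 members were called with limma at an adjusted p under 0.05, where 31.8% of all genes were called, and 1 of 10 (Lrrn4) had an unadjusted p under 0.05, where 42.2% of all genes did. In HFepa vs. Ref, 0 of 10 were called against 2.46% of all genes, and 0 of 10 against 21.6% had an unadjusted p under 0.05. In HFepa vs. HFoleic, 0 of 10 were called by limma and so was 0% of the 25618 genes. There, 1 member (Lrrn4) had an unadjusted p under 0.05 against 20.8% of all genes. The lowest and highest mice of the groups overlapped for all 10 members in all 3 comparisons, while 14.0% of all genes did not overlap in HFoleic vs. Ref, 1.04% in HFepa vs. Ref and 0.355% in HFepa vs. HFoleic. The median log2 difference of the 10 members was −0.44 in HFoleic vs. Ref, with −0.04 over all genes. It was −0.04 in HFepa vs. Ref, with −0.02 over all genes, and 0.54 in HFepa vs. HFoleic, with 0.01 over all genes. These comparisons share their mice, so the medians are not independent of each other.

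**Figure D1:**
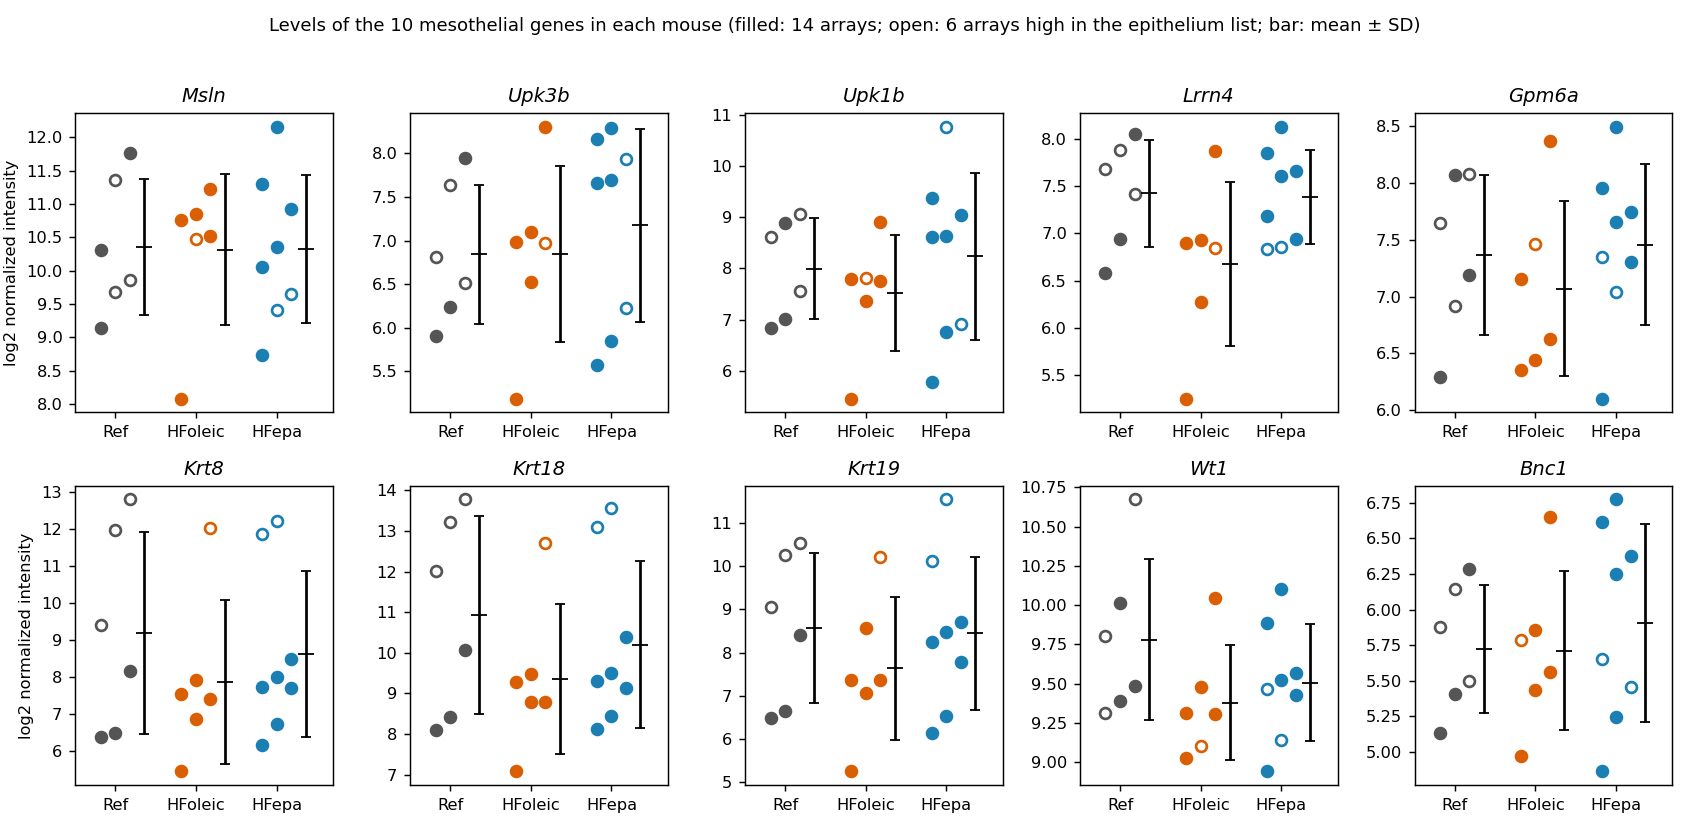
Each panel plots the log2 normalized intensity of 1 member (y axis, its own scale) in the 6 Ref, 6 HFoleic and 8 HFepa mice (x axis, 1 point per mouse), and the bar beside each group is its mean ± SD. Open points are the 6 arrays with a high epithelium list: they hold the 6 highest values of Krt8, Krt18 and Krt19, and for the other members they lie among the filled points except the highest values of Upk1b and Wt1.

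Msln encodes mesothelin, a protein anchored in the outer face of the mesothelial cell membrane by a lipid. Its probe lies on chromosome 17 at 25885569 to 25885628 of mm9. Its level ran from 9.14 to 11.76 in Ref mice (median 10.08), from 8.08 to 11.22 in HFoleic mice (median 10.64) and from 8.74 to 12.16 in HFepa mice (median 10.20). Within each group the highest mouse was thus over 2.6 log2 units above the lowest, and the 3 groups covered nearly the same span. The group means of 10.35 ± 1.02 (SD, n = 6), 10.32 ± 1.13 (n = 6) and 10.32 ± 1.11 (n = 8) differed by at most 0.04. The 95% interval of the difference in HFoleic vs. Ref ran from −1.25 to 1.18, so that a change of about 2-fold either way would lie inside it.

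Upk3b and Upk1b encode uroplakins, membrane proteins best known from the plaques that seal the bladder lining, with Upk1b a tetraspanin partner of the Upk3 type. The Upk3b probe lies on chromosome 5 at 136520522 to 136520581. Upk3b ran from 5.91 to 7.94 in Ref mice (median 6.66), from 5.19 to 8.31 in HFoleic mice (median 6.98) and from 5.58 to 8.29 in HFepa mice (median 7.68). The groups overlapped, and HFepa mice fell into 5 at 7.66 or above and 3 at 6.23 or below. The log2 difference of Upk3b was 0.00 (95% interval −1.11 to 1.11) in HFoleic vs. Ref and 0.33 (−0.71 to 1.37) in HFepa vs. Ref.

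The Upk1b probe lies on chromosome 16 at 38773592 to 38773651. Upk1b ran from 6.84 to 9.06 in Ref mice (median 8.08), from 5.45 to 8.91 in HFoleic mice (median 7.77) and from 5.77 to 10.77 in HFepa mice (median 8.62). The groups overlapped, and HFepa mouse 7 was the highest of all at 10.77, with the next of the 20 mice at 9.37. That mouse also stood out in genes of the bladder lining. Its Upk1a level, the uroplakin that pairs with Upk2, was 13.31 against 8.05 or lower in the other 19 mice, when probes were normalized without the filter on dim ones. Upk2 and Upk3a were well above background on 2 and 3 arrays only, and were also highest in that mouse, at 10.20 and 11.55 with the next mice at 5.75 and 6.22. Krt20, a keratin of the bladder surface, was 11.15 there against 7.18 or lower. Upk3b in that mouse, at 7.94, was inside the range of its group. Without HFepa mouse 7 the log2 difference of Upk1b in HFepa vs. Ref moved from 0.24 to −0.12. The part of bladder-lining RNA in the Upk1b level was not tested. A second Upk1b probe at 38773859 to 38773918 gave differences of −0.30 in HFoleic vs. Ref and 0.67 in HFepa vs. HFoleic, beside −0.48 and 0.73 by the first.

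Lrrn4 encodes a leucine-rich repeat membrane protein, used to pick out mesothelial cells, and was the member closest to a call. Its probe lies on chromosome 2 at 132694490 to 132694549. Lrrn4 ran from 6.58 to 8.05 in Ref mice (median 7.55), from 5.25 to 7.87 in HFoleic mice (median 6.87) and from 6.83 to 8.13 in HFepa mice (median 7.40). HFoleic mice sat low, with 5 of 6 below the Ref median, but HFoleic mouse 7 at 7.87 was above 4 of the 6 Ref mice. The log2 difference in HFoleic vs. Ref was −0.75 ± 0.35 (SE), with an adjusted p of 0.11 by limma. In HFepa vs. HFoleic it was 0.70 ± 0.32, with an adjusted p of 0.227, and in HFepa vs. Ref −0.04 ± 0.32. Leaving out HFoleic mouse 7 gave −0.99 in HFoleic vs. Ref with an adjusted p of 0.0292 by limma, and array weights gave −0.87 with 0.0448. Dropping HFoleic mouse 4, whose Lrrn4 level of 5.25 was not well above background, shrank the difference to −0.46. Among the 20 fits that lacked 1 mouse, the adjusted p by limma went up to 0.287. The 15 alternatives gave differences of −1.32 to −0.54, with adjusted p of 0.0448 to 0.455 by limma. Why array weights changed the call was not tested. Within slides 1, 2 and 3 the difference in HFoleic vs. Ref was −0.95, −1.51 and −0.51, where slide 2 held a single HFoleic array. In HFepa vs. HFoleic it was 0.86, 2.20 and −0.35, so that the sign turned on slide 3.

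Gpm6a encodes a membrane glycoprotein of the proteolipid family, known from neurons and also made by mesothelial cells. Its probe lies on chromosome 8 at 56145539 to 56145598. Gpm6a ran from 6.29 to 8.07 in Ref mice (median 7.42), from 6.36 to 8.37 in HFoleic mice (median 6.89) and from 6.10 to 8.49 in HFepa mice (median 7.5). All 3 groups began and ended at similar levels, and the differences ran from −0.30 in HFoleic vs. Ref to 0.39 in HFepa vs. HFoleic, each with a 95% interval across 0.

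Of the 10 members, 6 had an entry among the promoters of RefSeq on GRCm38.p6 (Lrrn4, Upk3b, Bnc1, Krt8, Krt18 and Gpm6a, the last with 2 starts), and those of the genes that moved together across mice are shown as the 250 bases before the annotated start, 5′ to 3′ on the strand of the gene. Capitals mark matches on either strand to 6 short motifs. They are TATAAA, the box of that name, then GGGCGG, known as the GC box, then TGANTCA, which AP-1 binds, then GGAATG, which TEAD factors bind, then GCGTGGG, of the type bound by EGR factors and Wt1, and lastly CCAAT, named after its letters. The first set holds the 3 membrane protein genes, at chr5:136038246-136038495 on the plus strand for Upk3b, chr2:132880863-132881112 on the minus strand for Lrrn4 and chr8:54779184-54779433 on the plus strand for Gpm6a.
Upk3b: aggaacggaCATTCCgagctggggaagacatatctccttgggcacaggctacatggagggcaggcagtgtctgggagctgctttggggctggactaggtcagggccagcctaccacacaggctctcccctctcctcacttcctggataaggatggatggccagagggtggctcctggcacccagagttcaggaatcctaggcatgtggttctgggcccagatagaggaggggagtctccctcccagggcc
Lrrn4: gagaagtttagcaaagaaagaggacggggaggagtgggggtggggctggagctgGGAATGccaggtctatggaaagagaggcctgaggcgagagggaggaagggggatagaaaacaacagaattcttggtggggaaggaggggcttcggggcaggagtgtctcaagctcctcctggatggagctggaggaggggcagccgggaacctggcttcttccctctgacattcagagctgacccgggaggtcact
Gpm6a: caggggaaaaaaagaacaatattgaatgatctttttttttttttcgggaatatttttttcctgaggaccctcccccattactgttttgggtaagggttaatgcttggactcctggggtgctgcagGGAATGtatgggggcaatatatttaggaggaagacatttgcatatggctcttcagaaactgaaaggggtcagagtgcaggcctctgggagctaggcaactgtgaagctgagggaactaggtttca
Each of the 3 windows shown holds 1 match, to GGAATG: its first base is at −241 in Upk3b on the opposite strand, at −196 in Lrrn4 and at −125 in Gpm6a. The window of the other Gpm6a start, at chr8:54954478-54954727, is not shown and holds no GGAATG, but 1 match to TATAAA with its first base at −211 on the opposite strand. GGAATG was found in 12.6% of the 32851 windows of that length, in either orientation. A match of letters is a description and not a site of binding.

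The 3 keratins had the widest spread of all members. Krt8 and Krt18 pair into the filament that fills simple epithelial cells, and Krt19 joins the same filaments. Krt8 ran from 6.37 to 12.81 in Ref mice (median 8.79), from 5.45 to 12.04 in HFoleic mice (median 7.47) and from 6.16 to 12.24 in HFepa mice (median 7.88). Krt18 ran from 8.09 to 13.78 (median 11.04), from 7.08 to 12.70 (median 9.04) and from 8.12 to 13.56 (median 9.41) in the same order. Krt19 ran from 6.49 to 10.53 (median 8.73), from 5.25 to 10.21 (median 7.36) and from 6.15 to 11.55 (median 8.36). The lowest and highest of the 20 mice were 103-fold apart for Krt18, which was well above background on all arrays. No such fold is given for Krt8 and Krt19, since their lowest value, in HFoleic mouse 4, was not well above background. Their probes lie on chromosome 15 at 101827138 to 101827197 (Krt8) and 101862341 to 101862400 (Krt18), and on chromosome 11 at 100002392 to 100002451 (Krt19).

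All 6 arrays with a high epithelium list were above all 14 others in Krt8, in Krt18 and in Krt19. On them Krt8 was 9.41 to 12.81, against 5.45 to 8.49 on the 14. Krt18 was 12.01 to 13.78 against 7.08 to 10.38, and Krt19 was 9.05 to 11.55 against 5.25 to 8.71. The other 7 members showed no such separation: Msln was 9.41 to 11.36 on the 6 and 8.08 to 12.16 on the 14, Bnc1 5.46 to 6.15 and 4.86 to 6.77, and of all 7 only Upk1b (HFepa mouse 7) and Wt1 (Ref mouse 3) had 1 of the 6 arrays above the 14.

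**Figure D2:**
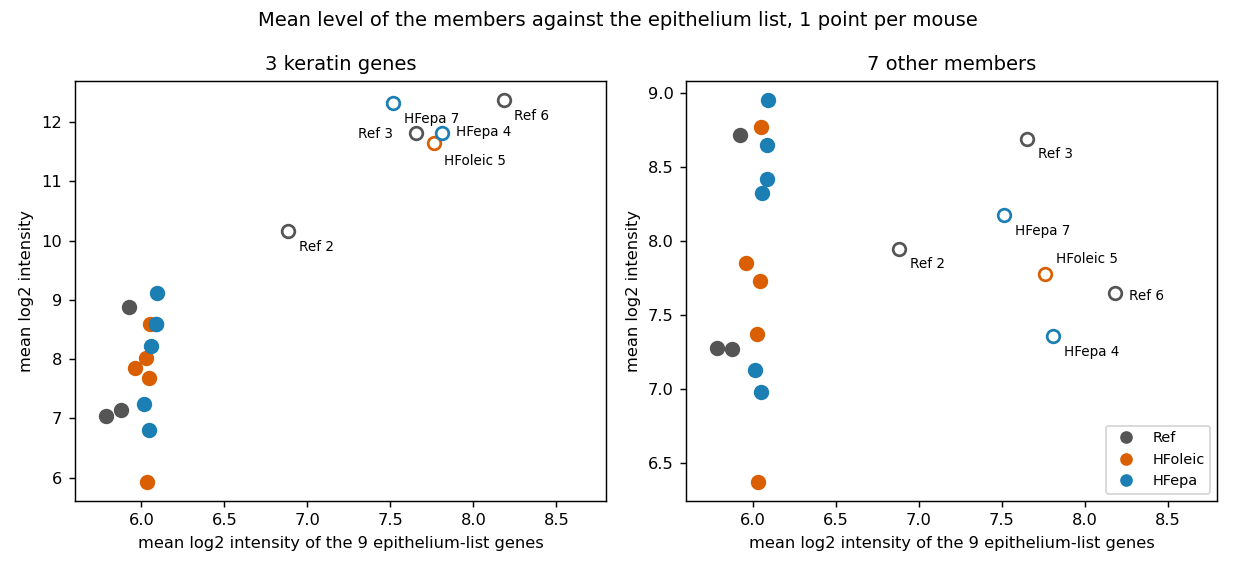
The mean log2 intensity of the 3 keratins (left) and of the 7 other members (right) is plotted against the mean of the 9 epithelium-list genes (x axis, log2), 1 point per mouse, with the 6 arrays of the high epithelium list drawn open and named. The 14 filled points stand in a column at 5.78 to 6.09 and spread widely up and down in both panels, and the 6 open points are the top of the left panel but not of the right.

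Epcam, a surface protein of epithelia and one of the 9 genes that set these arrays apart, was 6.22 to 9.41 on them and 5.06 to 5.53 on the other 14, a gap that the split itself helped to fix. Germ cell markers of the testis, which the split did not use, were high on 4 of the 6. Of the testis germ cell list, 5 of 10 genes were tested (Prm1, Prm2, Tnp1, Tnp2 and Tcp11), and its mean level was 8.08 to 8.92 on 4 of the 6 arrays (Ref mice 3 and 6, HFoleic mouse 5 and HFepa mouse 4), 6.58 in Ref mouse 2 and 6.07 in HFepa mouse 7, against 5.79 to 6.26 on the 14. The other 5 (Akap4, Odf1, Ldhc, Acrv1 and Smcp) were not well above background on enough arrays to be tested. A second testis list, of Sertoli cells (4 of 7 genes tested), did not separate the arrays, with a mean of 7.75 to 8.67 on the 6 and 6.76 to 8.57 on the 14. Nor did the mean of the epididymis list (5 of 11 genes tested), at 6.45 to 7.46 on the 6 and 6.28 to 8.70 on the 14, with HFepa mouse 2 the highest. Its gene Adam7 was 10.59 in Ref mouse 3, 8.45 in Ref mouse 6, 7.21 in HFoleic mouse 5 and 8.62 in HFepa mouse 2. In the other mice Adam7 was 6.05 or lower. The part of epididymal RNA on these arrays was not tested. The summed intensity of the epithelium list ran from 531 to 4900 in Ref mice, from 677 to 3360 in HFoleic mice and from 662 to 3374 in HFepa mice, and that of the testis germ cell list from 333 to 2429, 298 to 4628 and 282 to 1890. The part of epithelial RNA in the keratin levels was not tested directly. Ref held 3 of the 6 arrays and HFoleic 1.

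The keratin differences between groups changed most without these arrays. In HFoleic vs. Ref the log2 difference of Krt18 was −1.58 ± 1.13 (SE) with an adjusted p of 0.313 by limma, of Krt8 −1.33 ± 1.28 with 0.464 and of Krt19 −0.93 ± 0.92 with 0.481. Their 95% intervals were −3.94 to 0.78, −4.0 to 1.33 and −2.86 to 0.99. Without the 6 arrays, which leaves 3 Ref mice, these differences were −0.18, 0.03 (SE 0.60) and −0.06. The 6 arrays held the 6 highest values of each keratin, 3 of them in Ref and 1 in HFoleic. Leaving them out therefore had to lower the Ref mean, and the smaller differences are no test of a cause. With the mean of the epithelium list as a covariate the keratin differences were −0.61, −0.22 and −0.23, and no member was called in any comparison either way.

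The promoters of Krt8 and Krt18, which lie side by side on chromosome 15 and had nearly the same pattern across mice, are shown on the minus strand at chr15:102004343-102004592 and on the plus strand at chr15:102027966-102028215.
Krt8: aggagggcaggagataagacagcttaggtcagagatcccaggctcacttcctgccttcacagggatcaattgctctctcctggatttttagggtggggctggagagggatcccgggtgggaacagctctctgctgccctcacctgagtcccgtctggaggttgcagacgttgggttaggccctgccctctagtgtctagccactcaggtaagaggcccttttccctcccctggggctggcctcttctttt
Krt18: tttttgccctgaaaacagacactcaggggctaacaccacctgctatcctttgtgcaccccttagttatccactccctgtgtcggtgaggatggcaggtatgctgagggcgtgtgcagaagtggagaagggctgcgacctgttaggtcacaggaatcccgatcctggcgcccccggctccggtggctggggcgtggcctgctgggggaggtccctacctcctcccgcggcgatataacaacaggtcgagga
Neither window holds a match to the 6 motifs, which says only that those letters are not in these 250 bases. Their shares of G and C were 58% and 60.4%.

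Wt1 and Bnc1 encode the transcription factors among the members. Wt1 is a zinc finger factor required for the mesothelium and its descendants in the embryo, and Bnc1 (basonuclin) is a zinc finger factor of epithelial and germ cells. Wt1 had the smallest residual SD of the 10, 0.42 (log2), and 90.2% of all genes still had a smaller one. Its probe lies on chromosome 2 at 105013656 to 105013715. Wt1 ran from 9.31 to 10.67 in Ref mice (median 9.64), from 9.03 to 10.05 in HFoleic mice (median 9.31) and from 8.94 to 10.11 in HFepa mice (median 9.5). HFoleic mice sat a little lower, with 3 of 6 below the lowest Ref mouse, but HFoleic mouse 7 was above 5 of the 6 Ref mice. The log2 difference in HFoleic vs. Ref was −0.40 ± 0.23 (SE), with an adjusted p of 0.191 by limma, and the other Wt1 probe gave −0.51 ± 0.26 with 0.145. In HFepa vs. Ref it was −0.27 ± 0.21. The 95% interval in HFoleic vs. Ref ran from −0.87 to 0.07, which leaves out a rise beyond 1.05-fold.

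Bnc1 was the dimmest to the scanner, well above background on 13 of 20 arrays. Its probe lies on chromosome 7 at 89111978 to 89112037. Bnc1 ran from 5.13 to 6.28 in Ref mice (median 5.69), from 4.97 to 6.65 in HFoleic mice (median 5.67) and from 4.86 to 6.77 in HFepa mice (median 5.95). The groups overlapped over nearly their whole span, and the differences ran from −0.01 to 0.20. Its promoter window at chr7:81992300-81992549, on the minus strand, is shown because it differs from the others in base content, with 83.6% G and C.
Bnc1: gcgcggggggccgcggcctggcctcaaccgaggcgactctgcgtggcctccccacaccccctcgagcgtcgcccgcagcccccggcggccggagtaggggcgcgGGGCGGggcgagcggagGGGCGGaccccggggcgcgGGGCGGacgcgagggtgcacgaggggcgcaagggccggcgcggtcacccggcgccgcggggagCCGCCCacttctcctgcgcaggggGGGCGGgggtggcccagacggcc
It holds 5 matches, all to GGGCGG, where 32.7% of all windows hold at least 1.

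**Figure D3:**
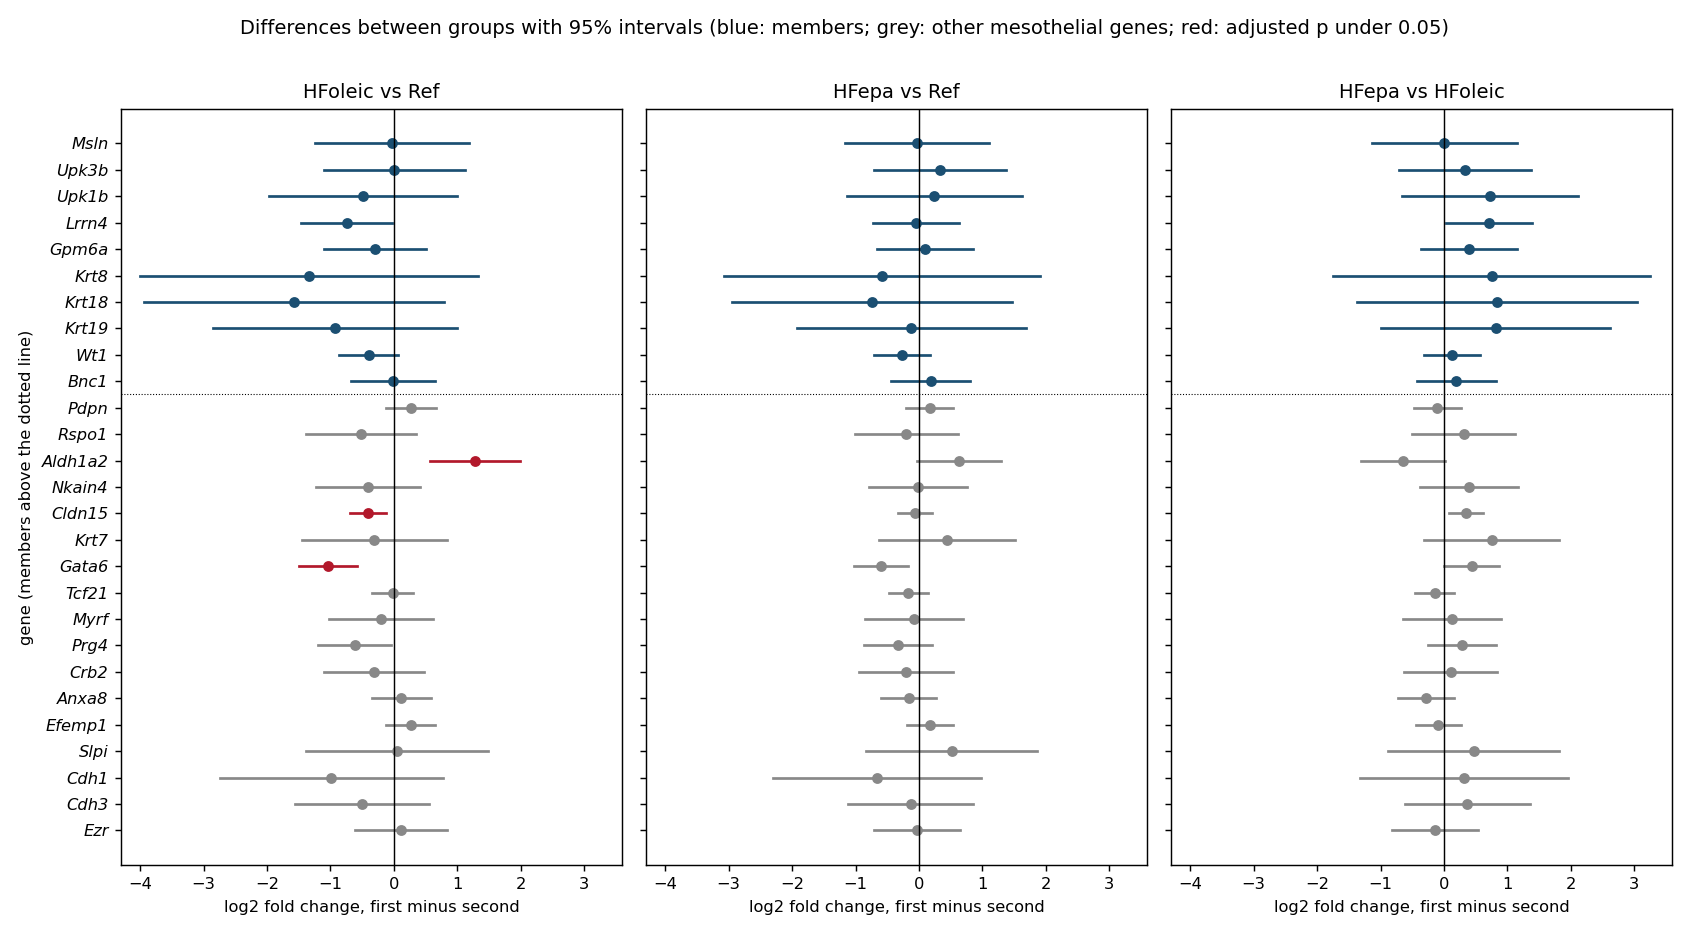
Each row gives the log2 difference of 1 gene (point) with its 95% interval (line) in the 3 comparisons, for the 10 members above the dotted line and 17 other mesothelial genes under it, and the x axis is log2, first group minus second. The lines of the 3 keratins are the longest of the members, no member is red (adjusted p under 0.05), and the red genes are Aldh1a2, Cldn15 and Gata6 in HFoleic vs. Ref.

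The residual SD between mice of a group was 1.09 for Msln, 0.99 for Upk3b, 1.33 for Upk1b and 2.39 for Krt8, while its median over all genes was 0.17. For 9 of the 10 members it was larger than in 94.9% of all genes or more, Wt1 being the exception. The same mice were low or high in several members. HFoleic mouse 4 was the lowest of the 20 in 7 members (Msln, Upk3b, Upk1b, Lrrn4, Krt8, Krt18 and Krt19), and among the 5 lowest in 9. Of these 7, only Msln and Krt18 were well above background in that mouse. HFepa mouse 8 was among the 5 lowest in 8 members, and Ref mouse 5 and HFepa mouse 3 in 7. At the other end, Ref mouse 3 was among the 5 highest in 8 members, and HFoleic mouse 7 and HFepa mouse 5 in 7. Each group thus held mice at both ends.

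Whether the members moved together across mice was examined on levels from which each mouse's group mean was subtracted. Over all 20 arrays, the 21 pairs of the 7 members other than keratins had a Pearson r of 0.524 to 0.927, with a median of 0.781. Upk3b and Upk1b had r = 0.927 and Spearman's rho = 0.935, each with a permutation p of 1e-05, the smallest that the permutations within groups could give, and adjusted p of 2.25e-04 for r and 3.21e-04 for rho over the 45 pairs of members. Without the 2 mice farthest from the median of Upk3b, r was 0.888. Lrrn4 and Bnc1 had r = 0.862 and rho = 0.922 (permutation p of 1e-05 for each, adjusted 1.50e-04). Bnc1 was well above background on only 13 of the 20 arrays and Lrrn4 on 19, so part of these values lie near the floor. The lowest pair, Msln and Gpm6a, had r = 0.524 (permutation p = 0.0275, adjusted 0.0476) and rho = 0.608 (permutation p = 0.00716, adjusted 0.0134). All values of a mouse come from 1 array, so the pairs share its RNA, hybridization and normalization.

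The 6 arrays with a high epithelium list held the 6 highest values of each keratin, so pooled pairs with a keratin are given only as a range. Of the 6, Ref mouse 2 lay nearest to the 14, at 9.41 in Krt8 and 9.05 in Krt19, where the 14 reached 8.49 and 8.71. Over all 20 arrays the 21 pairs of a keratin and another member had r of 0.053 to 0.679 (median 0.252). Over the 14 arrays with a low epithelium list, the keratins moved with the other members. There the 21 pairs of a keratin and another member had r of 0.585 to 0.988 (median 0.875), and the pairs of 2 keratins 0.880 to 0.969. These 14 arrays were chosen after the data were seen, by a list that separates the arrays as the keratins do. The permutation p-values take no account of that choice. Krt19 and Upk3b had r = 0.988 and rho = 0.987 over the 14 arrays (permutation p of 1e-05 for each, adjusted 2.25e-04), and r = 0.986 without the 2 farthest mice. In HFoleic mouse 4 neither gene was well above background. Krt8 and Msln had r = 0.932 (permutation p = 1.20e-04, adjusted 4.18e-04) and rho = 0.912 (permutation p = 3.20e-04, adjusted 8.00e-04). Krt18 and Wt1 had the lowest value, r = 0.585 (permutation p = 0.049, adjusted 0.0513) and rho = 0.60 (permutation p = 0.0443, adjusted 0.0443). The 6 remaining arrays are split over the groups as 3, 1 and 2 and gave no correlation of their own.

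**Figure D4:**
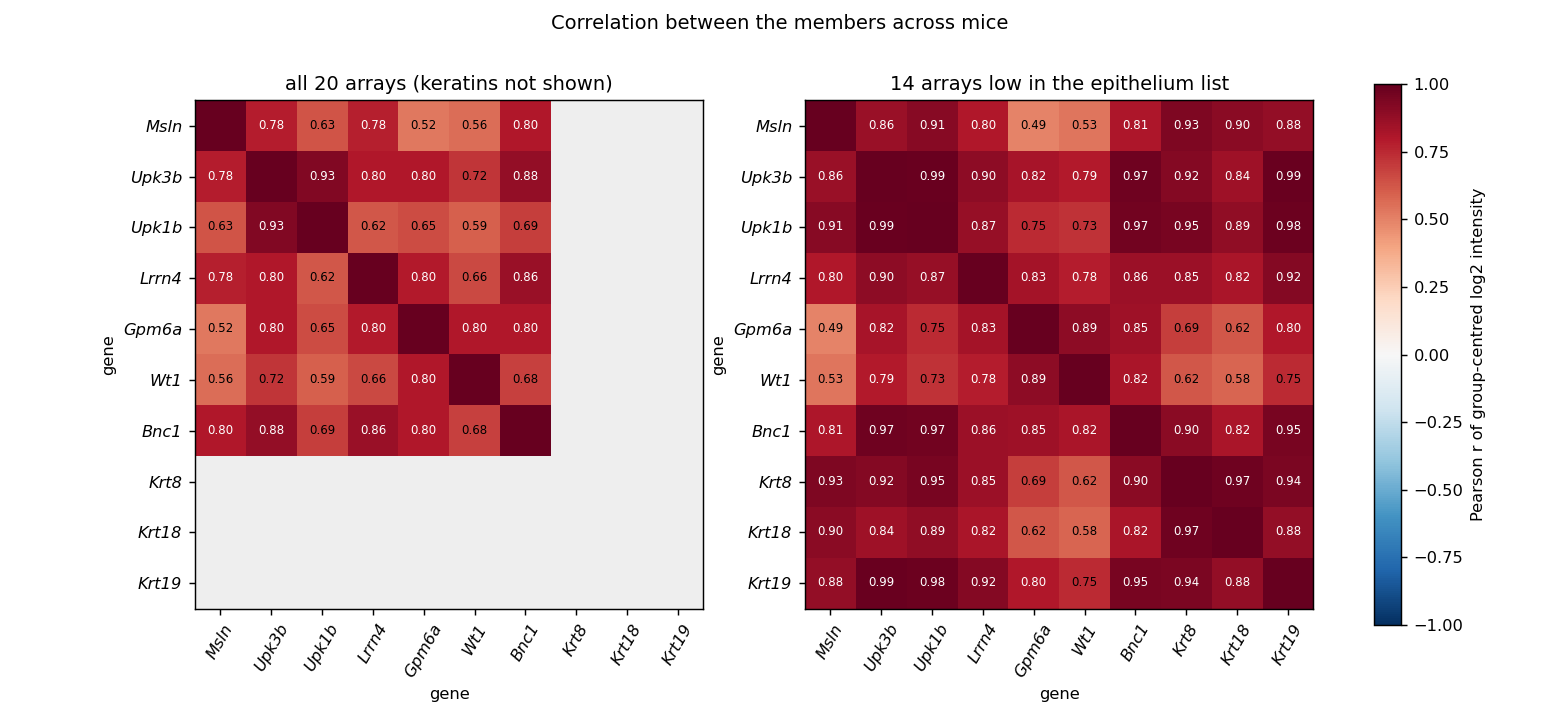
Pearson r between pairs of members across mice, after subtraction of group means, over all 20 arrays (left, keratins left blank) and over the 14 arrays with a low epithelium list (right), with the genes on both axes and the color scale from −1 to 1. On the right the 3 keratins join the block of the other members, with Msln against Gpm6a (0.495) as the lowest value.

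The levels of other cell types were set beside these. Over the 14 arrays, the r of the members with the mean of the macrophage list was −0.167 to 0.102, and with the progenitor and fibroblast list −0.149 to 0.232. These values depended on few mice. Without the 2 mice farthest from the median of each member, r was −0.095 to 0.330 with the macrophage list. With the progenitor and fibroblast list it was then −0.087 (Gpm6a) to 0.567 (Msln). With the epithelium list itself, which ran only from 5.78 to 6.09 on these arrays, r was 0.285 to 0.661 and rho 0.587 to 0.815. Adjusted over the pairs of a member and a list, the permutation p was 0.756 or higher for r and 0.0965 or higher for rho.

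Among genes outside the members, those most like the mean of all 10 over the 20 arrays were Cxadr, a junction protein (r = 0.938), Stk26, a kinase (0.899), Ano1, a chloride channel (0.882), AK034071 (0.877), Gm38426 (0.873), BC021767 (0.856), Cobl, an actin nucleator (0.845), Lgals2, a galectin (0.845), Cgn, the junction protein cingulin (0.839) and Igfbp2, which binds insulin-like growth factors (0.833). They were picked for their r, so no test belongs to it. The mean of all 10 holds the keratins and with them the 2 clusters of arrays. On the 14 arrays alone the r of these 10 genes ran from 0.825 (Ano1) to 0.985 (Cxadr). An r above 0.8 was reached by 15 of 25607 genes, 0.0586%. With the mean of the 7 members other than keratins, 12 genes (0.0469%) reached it, led by AI661453 (0.958). Crb2, a polarity protein (0.881), and Slpi, a secreted protease inhibitor (0.831), were the genes of the list of other mesothelial genes among those 12. Over the 17 tested genes of that list the median r was 0.408, and the values went down to −0.069 for Prg4 and −0.209 for Tcf21.

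Other mesothelial genes were read from a list of 19, of which 17 were tested (Muc16 had no spot of that name, and Calb2 was not tested). In HFoleic vs. Ref, 3 of 17 were called by limma, 1 higher and 2 lower in HFoleic, against 15.2% and 16.7% of all genes in these directions, and the median difference was −0.31. In HFepa vs. Ref and in HFepa vs. HFoleic 0 of 17 were called by limma, against 2.46% and 0% of all genes. At an unadjusted p under 0.05 there were 1 and 2 of the 17, where 21.6% and 20.8% of all genes were. Without HFepa mouse 1, Cldn15 was called in HFepa vs. HFoleic, with a log2 difference of 0.41 and an adjusted p of 0.0479 by limma.

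Gata6, a transcription factor of mesoderm and gut that also marks macrophages of the abdominal cavity, was 10.12 to 10.68 in Ref mice (median 10.50), 9.0 to 9.90 in HFoleic mice (median 9.25) and 8.95 to 10.30 in HFepa mice (median 10.03). No HFoleic mouse reached the lowest Ref mouse, and HFepa mice spanned both. Gata6 fell by 1.04 ± 0.22 on the log2 scale in HFoleic vs. Ref, with an adjusted p of 0.00188 by limma. The difference was −1.19, −1.13 and −0.84 within slides 1, 2 and 3. In HFepa vs. Ref it was −0.60, with an adjusted p of 0.106.

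Aldh1a2, which makes retinoic acid, was 8.40 to 9.47 in Ref mice (median 9.02), 9.30 to 10.89 in HFoleic mice (median 10.44) and 8.28 to 10.74 in HFepa mice (median 9.74). HFoleic mouse 1 alone overlapped with the Ref mice. Aldh1a2 rose by 1.27 ± 0.34 in HFoleic vs. Ref, with an adjusted p of 0.00809 by limma. Cldn15, a claudin of tight junctions, ran from 12.05 to 12.48 in Ref mice, from 11.45 to 12.12 in HFoleic mice and from 11.73 to 12.48 in HFepa mice, and fell by 0.41 ± 0.14 in HFoleic vs. Ref with an adjusted p of 0.0254 by limma. This call of Cldn15 was lost with the replicate number as a block (adjusted p of 0.0881), with median centring (0.0689), without the 6 arrays of the high epithelium list (0.0884) and without any 1 of Ref mice 4 and 5 and HFoleic mice 4, 5 and 6 (0.0543 to 0.0711). Prg4, the joint lubricant that mesothelium also secretes, had a difference of −0.62 ± 0.28 in HFoleic vs. Ref (adjusted p = 0.0968 by limma) and −0.33 in HFepa vs. Ref.

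Across the 20 arrays the r with the mean of the 7 members other than keratins was 0.026 for Gata6, 0.290 for Aldh1a2 and 0.196 for Cldn15. Markers of other cell types also moved in HFoleic vs. Ref. Of the macrophage list 6 of 8 genes were called higher, against 15.2% of all genes. Its mean level was 11.53 to 11.93 in Ref mice, 12.38 to 13.49 in HFoleic mice and 11.46 to 13.50 in HFepa mice. Of the adipocyte list 4 of 8 genes were called lower, against 16.7% of all genes. Its mean level was 17.28 ± 0.08 (SD, n = 6) in Ref and 16.89 ± 0.23 (n = 6) in HFoleic mice. Of the list of Sertoli cells, which nurse germ cells in the testis, 2 of 4 tested genes were called lower, against the same 16.7%. Its mean level was 8.12 ± 0.46 in Ref and 7.36 ± 0.34 in HFoleic mice. In the progenitor and fibroblast list 2 of 9 genes were called, both higher, and in the epithelium list 1 of 9, higher, against 15.2% of all genes. In the testis germ cell list 1 of 5 tested genes was called, lower, against 16.7% of all genes. Against 31.8% of all genes, 0 were called in the lists of endothelium (6 tested), lymphatic endothelium (3), smooth muscle (4), Schwann cells (4) and liver (8). The same held for pancreas (4 of 6 tested) and epididymis (5 of 11 tested), and lists this short could miss such a share. The part of these lists in the 3 differences was not tested. Without the 6 arrays of the high epithelium list the differences were −0.98 for Gata6, 1.40 for Aldh1a2 and −0.49 for Cldn15, and none was called (adjusted p of 0.0645, 0.079 and 0.0884 by limma), with 3 Ref mice left.

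Of 13 relatives of the members in their gene families, 10 were tested. Those named here were called in HFoleic vs. Ref and were chosen after their values were seen. In that comparison 31.8% of all genes were called, 15.2% higher and 16.7% lower in HFoleic, so calls among relatives are not particular to these families. Gpm6b, the closest relative of Gpm6a, rose from a mean of 10.04 to 10.84 and Lrrn2, a relative of Lrrn4, from 7.51 to 8.20 (adjusted p of 0.00275 and 0.0148 by limma). Bnc2, the second basonuclin, fell from 8.65 to 8.20 (adjusted p of 0.0092 by limma). None of the 10 was called in the comparisons of HFepa, where 3 had an unadjusted p under 0.05 against Ref and 2 against HFoleic, beside 21.6% and 20.8% of all genes.

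Of 17 genes of mesenchymal cells and matrix, 9 were called in HFoleic vs. Ref, 7 of them higher and 2 lower in HFoleic, where 31.8% of all genes were called, 15.2% higher and 16.7% lower, with a median difference of 0.16. In the comparisons of HFepa 0 of 17 were called by limma, with 3 (against Ref) and 8 (against HFoleic) at an unadjusted p under 0.05, where 21.6% and 20.8% of all genes were.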

How the data were processed

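RNA of VAT of 6 Ref, 6 HFoleic and 8 HFepa mice was labelled with Cy3 and hybridized to 1-colour Agilent SurePrint G3 mouse arrays on 3 slides. Only RNA above a minimum of integrity was used by the authors. The authors extracted spot intensities with Agilent Feature Extraction 10.10.1.1, and the deposited median signal is a raw intensity without background subtraction. They also deposited their log2 values, filtered and quantile normalized with limma.

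Spots that are controls or marked as outliers were left out. Probes well above background on at least 6 arrays were kept (39390 probes, 25618 gene names), and log2 median intensities were quantile normalized. One mean per group was fitted to all arrays with lmFit and eBayes (limma 3.58.1, R 4.3.3), with Benjamini–Hochberg adjustment over all probes and a threshold of 0.05. A gene is given by its tested probe with the highest mean. Files were read with data.table (version 1.17.8), and numpy, scipy and matplotlib were used. The model was tested on simulated data. Correlations used 1e+05 permutations within groups. Each mouse is 1 replicate, and their number limits the precision. Probe positions (mm9) come from the deposited files, and exon and UTR positions were not analysed here.

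The members and lists were chosen with earlier results of these data known. Named are all members, the 3 genes of the list of other mesothelial genes with the smallest p in each comparison with Ref, the 10 genes most like the mean of the members, and marker genes where a result moves with them. Relatives of the members, Crb2, Slpi, genes most like parts of the members and bladder genes were named after their values were seen. A result for 1 relative is not reported here. The alternatives were other signals, normalizations, filters, blocks, weights, fits and probes, and each array left out. Added after seeing the data were the fit without the 6 arrays of the high epithelium list, the mean of that list as a covariate and the correlations over the other 14 arrays. The sources used here do not give the rule of the authors' filter.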

Additional observations from a re-analysis of the deposited data

Results flagged for a closer look

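In 2 of the 30 sets of values (10 members in 3 groups) 1 mouse lay far from the rest of its group, and chance gives about 1 in 20 such sets. Msln in HFoleic mouse 4 was 8.08, and the next mouse of the group was 10.47. The same mouse was the lowest of all 20 in 7 members. Krt8 in HFoleic mouse 5 was 12.04, and the next mouse of the group was 7.92. That array is also the only HFoleic one of the 6 with a high epithelium list.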

How the results depend on the processing

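The 10 members were not called in any comparison under 14 of the 15 alternatives, and with array weights 1 member (Lrrn4) was called in HFoleic vs. Ref. Bnc1 gave no value when a probe had to be well above background on every array of a group. The sign changed in 24 of 447 values, and none of these was called. Under the setting processed signal minus its 75th percentile, the log2 differences that changed sign were Upk3b −0.44 (HFoleic vs. Ref). Under the setting median centring, the log2 differences that changed sign were Msln 0.012 (HFoleic vs. Ref), Upk3b −0.093 (HFoleic vs. Ref), Msln −0.015 (HFepa vs. HFoleic). Under the setting no filter on dim probes, the log2 differences that changed sign were Upk3b −0.0017 (HFoleic vs. Ref), Bnc1 0.0038 (HFoleic vs. Ref). Under the setting array weights, the log2 differences that changed sign were Upk3b −0.19 (HFoleic vs. Ref), Gpm6a −0.014 (HFepa vs. Ref), Krt19 0.20 (HFepa vs. Ref), Msln −0.069 (HFepa vs. HFoleic). Under the setting without the 6 arrays with a high epithelium list, the log2 differences that changed sign were Krt8 0.032 (HFoleic vs. Ref), Bnc1 0.081 (HFoleic vs. Ref), Msln 0.18 (HFepa vs. Ref), Lrrn4 0.37 (HFepa vs. Ref), Krt8 0.47 (HFepa vs. Ref), Krt18 0.29 (HFepa vs. Ref), Krt19 0.47 (HFepa vs. Ref). Under the setting epithelium list as covariate, the log2 differences that changed sign were Krt8 0.11 (HFepa vs. Ref), Krt19 0.32 (HFepa vs. Ref). 

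Replicate numbers did not pair the mice: over 16 pairs of the same number the correlation of deviations ran from −0.587 to 0.559, and 1 pair correlated best with its own number. With the replicate number as a block 0 members were called, and signs changed for Gpm6a 0.043 (HFoleic vs. Ref), Bnc1 0.0047 (HFoleic vs. Ref), Krt19 0.15 (HFepa vs. Ref). With the slide as a block they changed for Upk3b −0.091 (HFoleic vs. Ref), Krt19 0.0085 (HFepa vs. Ref). 

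Each array was left out in turn. The number of members called ran from 0 to 1 in HFoleic vs. Ref, where Lrrn4 was called without HFoleic replicate 7, and was 0 throughout in the other comparisons. The number of other mesothelial genes called in HFoleic vs. Ref ran from 2 to 4, and was 0 of 16 tested without the 6 arrays of the high epithelium list. It was 0 throughout in HFepa vs. Ref and ran from 0 to 1 in HFepa vs. HFoleic, with Cldn15 called without HFepa replicate 1. Cldn15 lost its call without Ref replicate 4 or 5 or HFoleic replicate 4, 5 or 6, with the replicate block (adjusted p = 0.0881 by limma) and with median centring (0.0689). Among differences whose sign turned with 1 array, the ranges were −0.28 to 0.41 for Msln in HFoleic vs. Ref, −0.29 to 0.33 for Upk3b in HFoleic vs. Ref, −0.20 to 0.13 for Bnc1 in HFoleic vs. Ref, −0.29 to 0.25 for Msln in HFepa vs. Ref, −0.12 to 0.59 for Upk1b in HFepa vs. Ref, −0.21 to 0.082 for Lrrn4 in HFepa vs. Ref, −0.12 to 0.28 for Gpm6a in HFepa vs. Ref, −1.15 to 0.14 for Krt8 in HFepa vs. Ref, −0.56 to 0.28 for Krt19 in HFepa vs. Ref, −0.44 to 0.23 for Msln in HFepa vs. HFoleic and −0.0046 to 0.62 for Upk3b in HFepa vs. HFoleic. The causes were not tested. The number of mice limits what can be seen: for the keratins a difference of several-fold lies inside the intervals.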
